A study of Mus musculus with 36 samples.

Results

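The Ikaros family comprises the zinc finger transcription factors Ikaros (Ikzf1), Helios (Ikzf2), Aiolos (Ikzf3), Eos (Ikzf4) and Pegasus (Ikzf5), whose transcripts were followed here while mouse B cells were converted to macrophages by C/EBPα. The members were chosen by their gene symbols, 5 of the 40354 genes in the count tables, and all 5 passed the filter on low counts in every fit. The cells were primary B cells from the bone marrow of C57BL/6J mice. They were infected with a retrovirus that carried C/EBPα fused to the estrogen receptor and followed by an IRES and human CD4 (C/EBPα-ER-IRES-hCD4). Infected cultures were enriched for hCD4+ cells and kept on inactivated embryonic fibroblast feeders. The induction medium held IL-7, IL-3, FLT-3, CSF-1 and SCF, and was renewed every 2 days without IL-7. 17β-estradiol (E2), which brings the fusion protein into the nucleus, was added to start B cell to macrophage transdifferentiation (BMT). The constructs encoded C/EBPα WT, C/EBPα R35A (arginine 35 replaced by alanine) or C/EBPα R35K (arginine 35 replaced by lysine). Cells were harvested before E2, termed 0 hr post induction (hpi), and 1, 3, 6, 18 or 120 hr after it, and feeders were removed by their adherence to dishes. With 2 biological replicates for every construct and timepoint, the 18 groups comprised 36 libraries of stranded mRNA-seq. The mouse age was not given in the sources used here. The factor was supplied by a virus in every group, 0 hpi included, and an uninfected group was not analysed here.

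Ikaros proteins bind DNA through zinc fingers at the N-terminus and pair with each other through zinc fingers at the C-terminus. Ikaros and Aiolos act in lymphoid cells, where they recruit the NuRD, Sin3 and CtBP co-repressors and accompany the passage of pre-B cells out of cycling and towards light chain rearrangement. Helios and Eos are known mainly from regulatory T cells, and Pegasus is the most divergent member. Ikaros is also expressed in myeloid cells, whereas Aiolos is largely a lymphoid factor.

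On mm10, as annotated in GENCODE vM21, Ikzf1 (ENSMUSG00000018654.17) lies at chr11:11685003-11772926 on the plus strand and has 5777 bp of exon. The other members lie on the minus strand: Ikzf2 (ENSMUSG00000025997.13) at chr1:69531214-69687245 with 11613 bp of exon, Ikzf3 (ENSMUSG00000018168.8) at chr11:98464902-98546031 with 8754 bp, Ikzf4 (ENSMUSG00000002578.17) at chr10:128630843-128645991 with 5995 bp, and Ikzf5 (ENSMUSG00000040167.16) at chr7:131388652-131410521 with 5721 bp. The counts sum over all exons and do not separate the DNA-binding from the short isoforms of these genes.

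Promoter sequence, from 250 bases before to 50 after a start, was available in RefSeq (GRCm38.p6) for 2 of the 5 members, 2 windows of Ikzf1 and 1 of Ikzf5. Both strands were searched for the letters TTGCNNAA of a C/EBP site, GAGGAA of a PU.1 site and TGGGAA of an Ikaros core. These letters occurred in 10.8%, 28.3% and 25.6%, respectively, of the 32851 mouse windows of 300 bases that were searched, with 1 chromosome left out. In the windows of Ikzf1 none of the motifs was found. The window of Ikzf5 held 2 matches to TTGCNNAA or its reverse complement TTNNGCAA and none to the other motifs. They are shown, with the match in capitals, because they were the only matches in a member's promoter and stand in front of a gene for which no change was called at any timepoint. The distal match lies 214 bases before the start (chr7:131410674-131410703, minus strand) and the proximal match 58 bases before it (chr7:131410518-131410547, minus strand).
Ikzf5 distal match: tccacgaacccTTGCGCAAgactccctcgg
Ikzf5 proximal match: tcacgcgagacTTGGGCAAggcgtggggcg
Both stretches are written along the minus strand, on which Ikzf5 is transcribed. The distal match fits TTGCNNAA on either strand, and the proximal one reads TTNNGCAA here, so that its TTGCNNAA lies on the plus strand. A match of letters describes the window, and binding of a factor there was not measured.

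Libraries held 13044456 to 23131776 counts (median 15471229.5). The labels call the cells B-cells up to 18 hpi and macrophages at 120 hpi. The B cell markers Cd79a, Cd79b, Pax5, Ebf1, Vpreb1, Ms4a1 and Blnk summed to 2594–2864 CPM (counts scaled to the library size) at 0 hpi and to 128.8–196.1 CPM at 120 hpi, and the sum of 8 macrophage markers went from 48.7–55.8 to 19990–31490 CPM. T cell markers summed to 40.5–46.6 CPM at 0 hpi and to 1.11–2.03 CPM at 120 hpi, where Cd3e, Cd3g and Cd8a were at 0. Already at 0 hpi, 4 of these 8 markers had at most 3 counts per library in each construct, so the sum came from the others. Cebpa itself, whose reads may come from the virus or from the endogenous gene, was at 43.0 and 38.5 CPM in the C/EBPα WT libraries at 0 hpi and at 104.9 and 101.3 CPM at 1 hpi. In R35A cells it went from 39.7 and 34.9 to 52.9 and 55.6 CPM, and in R35K cells from 39.0 and 37.0 to 91.1 and 87.8 CPM. The R35A minus WT difference in this change was −0.83 ± 0.09 on the log2 scale (SE; edgeR, adjusted p = 1.35e-10), and its part in the differences between constructs described for the members was not tested. The replicates of WT at 6 hpi and of R35K at 3 hpi differed most, with a chi-square per degree of freedom of 11.9 and 6.47 against 1.104 to 2.98 in the other 16 groups. In 1 library of each of these pairs, replicate 1 of WT at 6 hpi and replicate 2 of R35K at 3 hpi, 0.643% to 1.04% of counts fell on 3 ribosomal RNA rows, against at most 0.264% in the other 34 libraries. Without that WT library, the 6 hpi change of Ikzf1 was −1.201 in place of −1.17 on the log2 scale and that of Ikzf3 −3.24 in place of −3.26. Without that R35K library, the 3 hpi change of Ikzf1 was −1.54 in place of −1.55 and that of Ikzf3 −3.00 in place of −2.95.

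B cells at 0 hpi carried Ikzf1 and Ikzf3 at high levels and the other members at low ones. The level of Ikzf1 was 415 and 406 CPM in the 2 WT libraries, 388 and 381 CPM in R35A, and 399 and 402 CPM in R35K. The level of Ikzf3 was 249.5 and 254 CPM in WT, 223 and 235 CPM in R35A, and 246.5 and 252 CPM in R35K. Ikzf2 lay between 3.06 and 3.91 CPM, Ikzf4 between 1.28 and 2.35 CPM and Ikzf5 between 0.783 and 1.27 CPM in these 6 libraries. Divided by exon length, Ikzf1 made up 70.3% to 71.1% of the summed family level and Ikzf3 28.0% to 28.9%. A level difference between R35A and WT at 0 hpi was called for 0 of the 5 members (edgeR, Benjamini-Hochberg adjusted p of at most 0.05 and at least 1.5-fold), as it was for 0% of the 16988 genes tested. DESeq2 called 0 as well. At an unadjusted p under 0.05, 2 members stood out, Ikzf1 (log2 difference −0.09 ± 0.03 SE, adjusted p = 0.342) and Ikzf3 (−0.13 ± 0.04 SE, adjusted p = 0.28). Neither difference reached 1.5-fold.

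The question of the time course in C/EBPα WT cells is how each member's transcript moved during BMT. Ikzf1 dropped by 1 hpi, lay within 179.8 to 190.4 CPM until 6 hpi, dropped again by 18 hpi and came back in part at 120 hpi, while Ikzf3 was lower at each later timepoint and nearly gone at the end. At 1 hpi, 2 of the 5 members were called, beside 19.9% of the 16988 genes tested, and both had fallen. At 3, 6 and 18 hpi 3 of the 5 were called, beside 23.5%, 29.8% and 47.1% of genes. At 120 hpi 4 of 5 were called, beside 63.3% of genes. In bulk RNA, fewer cells with a transcript and less of it per cell cannot be told apart.

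**Figure D1:**
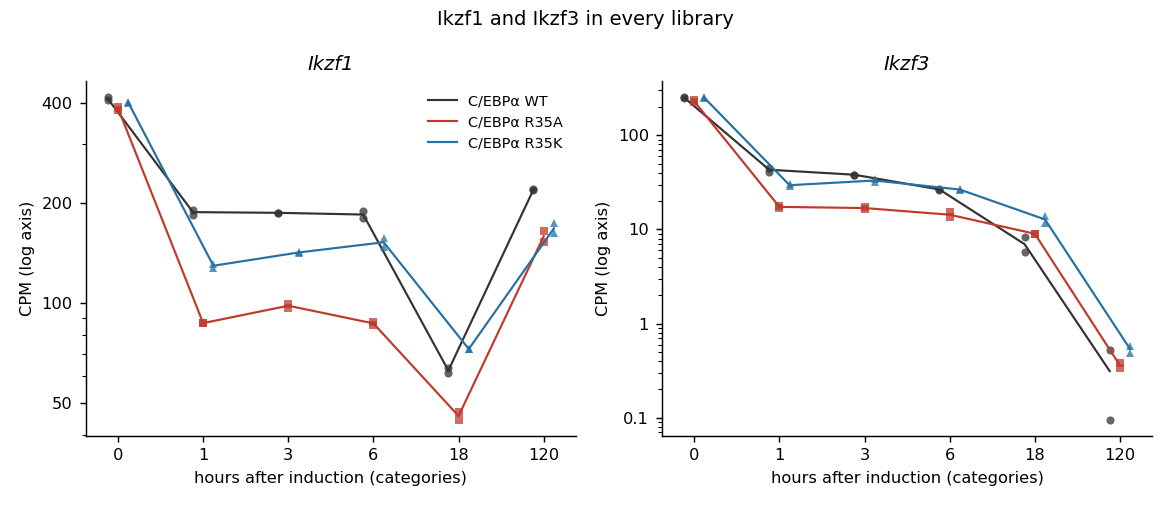
Level of Ikzf1 (left) and Ikzf3 (right) in CPM on a log axis against hours post induction, drawn as evenly spaced categories. Points are the 2 libraries of each group and lines join their means; R35A libraries lie below the WT libraries from 1 to 6 hpi in both panels, Ikzf1 is lowest at 18 hpi and higher again at 120 hpi, and Ikzf3 ends below 1 CPM in all 6 libraries.

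The level of Ikzf1, 415 and 406 CPM before induction, was 184 and 190.4 CPM at 1 hpi in WT cells. It was 187 and 186 CPM at 3 hpi and 188 and 179.8 CPM at 6 hpi. At 18 hpi it was 63.4 and 61.5 CPM, and at 120 hpi 218 and 220.1 CPM. All later libraries lay below those of 0 hpi, the 18 hpi libraries lay below all others, and those of 1, 3 and 6 hpi overlapped. Against 0 hpi the log2 fold change was −1.11 ± 0.04 (SE; adjusted p = 2.57e-31) at 1 hpi, −2.72 ± 0.04 (adjusted p = 9.07e-47) at 18 hpi and −1.04 ± 0.04 (adjusted p = 7.77e-31) at 120 hpi. Ikzf1 thus stood at 45.6% of its starting level after 1 hr, 15.2% after 18 hr and 53.3% after 120 hr. The steps from 1 to 3 hpi and from 3 to 6 hpi were both −0.03 on the log2 scale (adjusted p = 0.677 and 0.661). From 6 to 18 hpi it fell by 1.55 (adjusted p = 1.75e-34), a step in which 13.3% of genes were called, and from 18 to 120 hpi it rose by 1.69 (adjusted p = 1.93e-37), a step in which 60.5% of genes were called.

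Aiolos transcripts followed another course. The level of Ikzf3 in WT cells was 41.2 and 44.9 CPM at 1 hpi, 37.9 and 38.3 CPM at 3 hpi, 26.2 and 26.9 CPM at 6 hpi and 5.74 and 8.22 CPM at 18 hpi. At 120 hpi it was 0.531 and 0.0956 CPM, from 7 reads in the 2 libraries together against 7204 at 0 hpi. No timepoint overlapped the one before it. The log2 fold change against 0 hpi was −2.52 ± 0.05 (SE; adjusted p = 7.00e-39) at 1 hpi and −5.16 ± 0.07 (adjusted p = 1.54e-47) at 18 hpi. After 1 hr Ikzf3 stood at 17.1% of its starting level, after 18 hr at 2.77% and after 120 hr at 0.124%, with an exact Poisson 95% interval of 0.0514% to 0.263% that covers counting error only. At 1 hpi Ikzf1 stood at 45.6% and Ikzf3 at 17.1%, a difference between genes that was not tested.

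Ikzf2 rose from low levels in WT cells and then fell. Its level was 3.63 and 3.06 CPM at 0 hpi, 3.55 and 3.84 CPM at 1 hpi, 5.99 and 5.33 CPM at 3 hpi, 5.63 and 6.57 CPM at 6 hpi, 6.44 and 8.05 CPM at 18 hpi and 0.796 and 0.287 CPM at 120 hpi. The libraries of 3, 6 and 18 hpi lay above those of 0 hpi without overlap, and those of 120 hpi below. The log2 fold change was 0.75 ± 0.18 (SE; adjusted p = 0.000368) at 3 hpi, 0.85 ± 0.18 (adjusted p = 5.10e-05) at 6 hpi, 1.11 ± 0.17 (adjusted p = 1.05e-07) at 18 hpi and −2.71 ± 0.34 (adjusted p = 7.51e-10) at 120 hpi. Markers of the feeder fibroblasts were also raised up to 18 hpi and lowest at 120 hpi. They had risen by 1 hpi already, when no change of Ikzf2 was called (log2 fold change 0.16). The 8 markers Col1a1, Col1a2, Col3a1, Fbn1, Postn, Thy1, Pdgfra and Pdgfrb, all present, summed to 1382–1408 CPM at 0 hpi, to 2857–3550 CPM from 1 to 18 hpi and to 149.5–172 CPM at 120 hpi in WT cells. Per 1000 CPM of these markers, the log2 ratio of mean Ikzf2 to its 0 hpi value was −0.90 at 1 hpi. It was −0.50, −0.45, −0.22 and 0.45 at 3, 6, 18 and 120 hpi, opposite in sign to the changes above at these timepoints. The library values per 1000 CPM at 18 hpi (1.815 and 2.313) overlapped those at 0 hpi (2.629 and 2.175). Those at 120 hpi (4.64 and 1.92, from 9 and 3 reads) lay on both sides of the 0 hpi values, so the sign there is not settled. The part of feeder RNA in the Ikzf2 result was not tested.

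**Figure D2:**
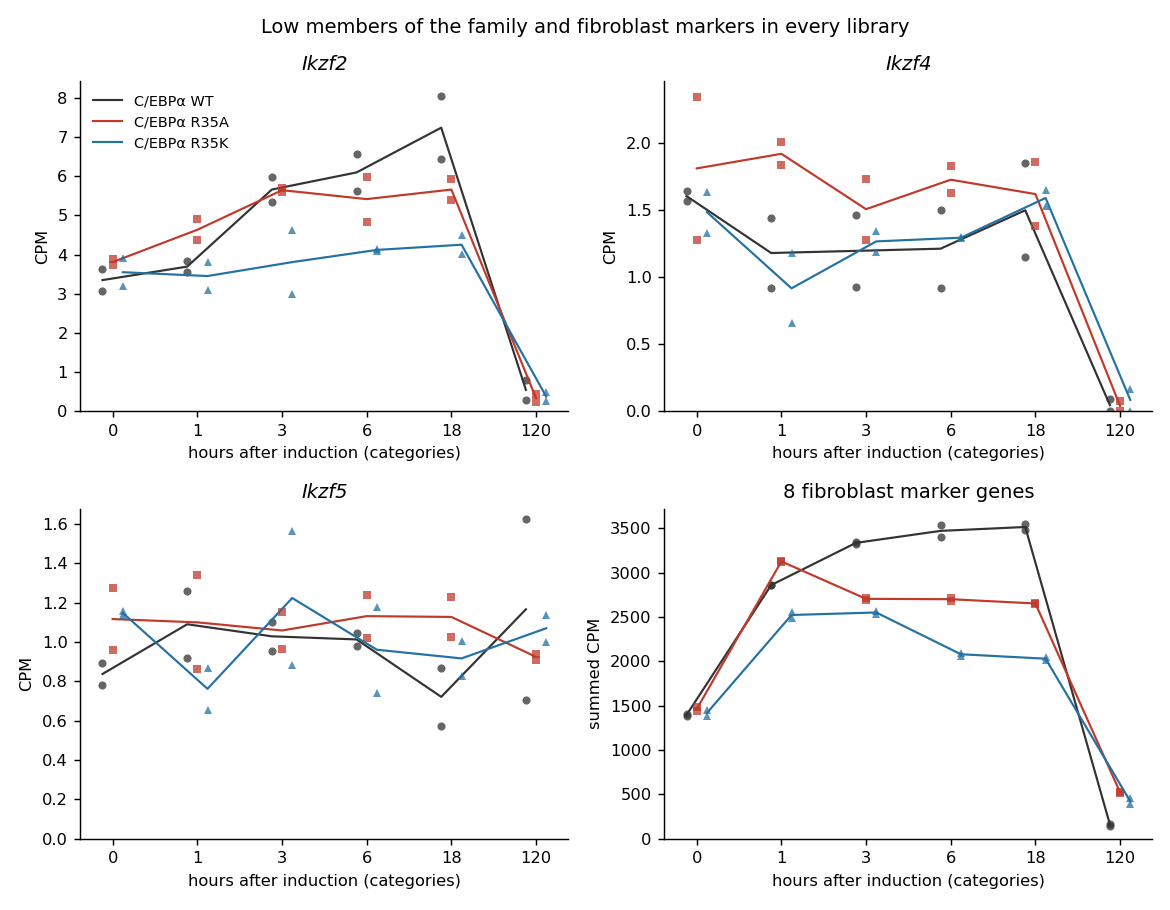
Level of Ikzf2, Ikzf4 and Ikzf5 in CPM and the summed CPM of the 8 fibroblast marker genes, each against hours post induction as evenly spaced categories. Points are the 2 libraries of each group and lines join their means; Ikzf2, Ikzf4 and the fibroblast markers are all lowest at 120 hpi, and Ikzf5 stays between 0.574 and 1.62 CPM in the 36 libraries.

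Ikzf4, encoding Eos, was near the limit of these libraries throughout, with 0 to 36 reads per library. In WT cells it was at 1.65 and 1.57 CPM at 0 hpi and between 0.917 and 1.85 CPM from 1 to 18 hpi. At 120 hpi, 1 library held 1 read and the other 0. Against a floor of 3 reads per library, Ikzf4 was at least 5.82-fold lower at 120 hpi than at 0 hpi in WT cells, at least 7.50-fold lower in R35A cells and at least 6.02-fold lower in R35K cells. The fall was called in all 3 constructs, with an adjusted p of 1.33e-07, 7.69e-09 and 5.76e-07, respectively. The fibroblast markers above fell over the same interval. Per 1000 CPM of them the 120 hpi change of Ikzf4 was −2.16 in WT, −4.09 in R35A and −2.51 in R35K cells on the log2 scale. These values rest on 1, 1 and 2 reads in the 2 libraries together, so their size is not settled, nor is the sign in WT cells. At 18 hpi the values on this measure were −1.43 in WT, −1.03 in R35A and −0.42 in R35K cells.

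Ikzf5 was at 0.891 and 0.783 CPM in WT cells at 0 hpi and at 0.707 and 1.62 CPM at 120 hpi, and held 8 to 25 reads in every one of the 36 libraries. For none of the 15 changes from 0 hpi was it called by edgeR or DESeq2. The log2 fold changes ran from −0.63 to 0.41 with SEs of 0.33 to 0.42, so changes above 1.5-fold could also go uncalled at this depth. The value of −0.63 (R35K at 1 hpi, edgeR adjusted p = 0.151) was such a case. Of its 5721 exonic bases, 4652 lie under exons of Pstk on the opposite strand. Pstk had 5232 counts over the 36 libraries and Ikzf5 587. The strand setting used in counting was not given in the sources used here. Of 498 genes whose exons lie wholly under opposite-strand exons, only 8 (1.61%) were listed in the count tables, against 71.3% of the other 54900 genes. Those 8 had up to 471 counts over the 36 libraries. The counts of Ikzf5 are uncertain on this account.

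**Figure D3:**
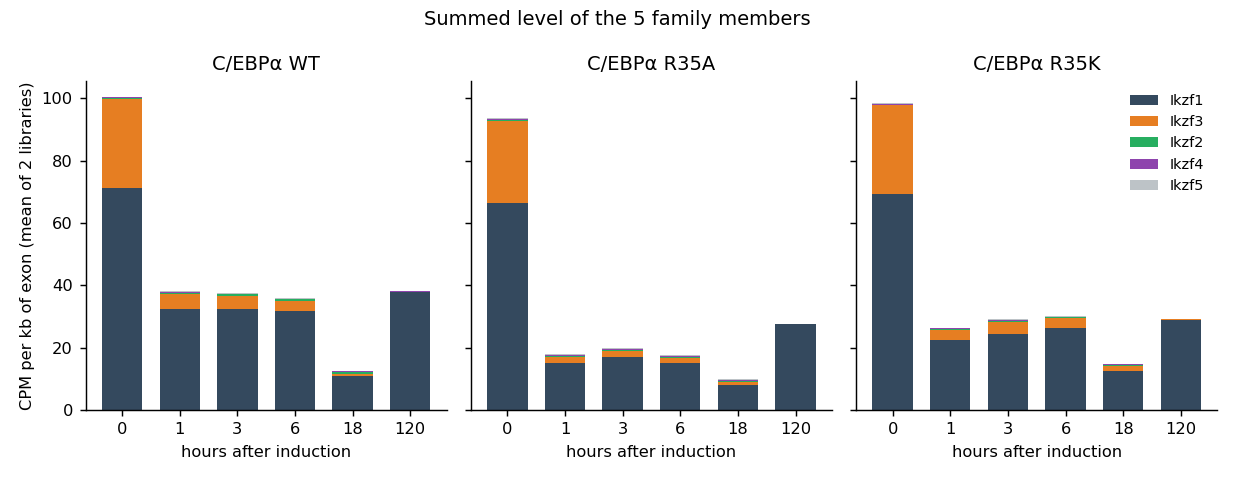
Summed level of the 5 members in CPM per kb of exon, as the mean of 2 libraries, in bars that start at 0, for each construct and timepoint. Ikzf1 makes up 70.3% to 71.1% of the bar and Ikzf3 most of the rest at 0 hpi. The bars are lowest at 18 hpi, and at 120 hpi nearly all of the bar is Ikzf1. Ikzf5 is divided by all of its exonic bases, those under exons of Pstk included.

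Per length, the summed family level fell, and at 120 hpi nearly all of it was Ikzf1. At 0, 1, 18 and 120 hpi the summed level was 100.5, 38.0, 12.6 and 38.2 CPM per kb in WT cells. It was 93.6, 17.9, 9.87 and 27.6 CPM per kb in R35A cells at these timepoints, and in R35K cells 98.5, 26.3, 14.8 and 29.2. The share of Ikzf1 in this sum was 70.7% in WT cells at 0 hpi and 99.2% at 120 hpi, and that of Ikzf3 went from 28.6% to 0.094%. In R35A and R35K cells at 120 hpi Ikzf1 held 99.1% and 99.0%. Ikzf5 was divided by all of its 5721 exonic bases, 4652 of which lie under exons of Pstk. If reads over these bases were dropped in counting, its share is understated and the other shares are overstated.

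In C/EBPα R35A cells Ikzf1 and Ikzf3 also fell, to lower levels than in WT cells from 1 to 6 hpi. At 1, 3, 6 and 18 hpi 2 of the 5 members were called against 0 hpi, beside 37.3%, 36.8%, 37.7% and 42.6% of genes, and at 120 hpi 4 of 5, beside 63.1%. The level of Ikzf1 in the 2 R35A libraries was 86.8 and 86.6 CPM at 1 hpi, 99.3 and 96.4 CPM at 3 hpi, 87.5 and 85.6 CPM at 6 hpi, 44.4 and 46.7 CPM at 18 hpi and 164 and 153 CPM at 120 hpi. All of these lay below the WT libraries of the same timepoint. Its log2 fold change against 0 hpi, in order of time, was −2.17, −2.00, −2.17, −3.09 and −1.40, each with an SE of 0.04. Ikzf1 thus stood at 22.6% of its 0 hpi level after 1 hr. From 18 to 120 hpi it rose by 1.69 ± 0.04 on the log2 scale (adjusted p = 2.64e-36), beside 53.9% of genes called.

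The level of Ikzf3 in R35A cells was 17.7 and 17.0 CPM at 1 hpi, 17.3 and 16.4 CPM at 3 hpi, 13.5 and 15.1 CPM at 6 hpi, 9.05 and 8.95 CPM at 18 hpi and 0.341 and 0.379 CPM at 120 hpi. These values were lower than in WT cells up to 6 hpi, whereas at 18 hpi both libraries were higher than the WT libraries. The log2 fold change against 0 hpi was −3.75 ± 0.06 (SE) at 1 hpi, −4.01 ± 0.06 at 6 hpi and −4.69 ± 0.07 at 18 hpi. Ikzf3 stood at 7.58% of its starting level after 1 hr and at 3.93% after 18 hr, and 9 reads were left at 120 hpi, 0.157% of the start (0.0719% to 0.298%, exact Poisson 95% interval).

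Ikzf2 in R35A cells was at 3.89 and 3.73 CPM at 0 hpi, at 5.60 and 5.70 CPM at 3 hpi, at 4.84 and 5.99 CPM at 6 hpi, at 5.39 and 5.93 CPM at 18 hpi and at 0.427 and 0.228 CPM at 120 hpi. The log2 differences of 0.54, 0.51 and 0.56 at 3, 6 and 18 hpi had adjusted p = 0.00463, 0.00567 and 0.00242 but lay under the 1.5-fold threshold. DESeq2 gave 0.61 at 3 hpi (adjusted p = 0.0128) and 0.62 at 18 hpi (adjusted p = 0.0096), both called. At 120 hpi Ikzf2 fell by 3.65 ± 0.35 (adjusted p = 2.40e-13). The fibroblast markers summed to 1442–1481 CPM at 0 hpi, to 2648–3133 CPM from 1 to 18 hpi and to 519–526.5 CPM at 120 hpi in these cells. Between 1 and 18 hpi they went from 3118–3133 to 2648–2656 CPM, while mean Ikzf2 went from 4.64 to 5.66 CPM. Per 1000 CPM of these markers the log2 ratio of mean Ikzf2 to its 0 hpi value was −0.81 at 1 hpi. It was −0.32, −0.38 and −0.29 at 3, 6 and 18 hpi, opposite in sign to the differences above, and −2.06 at 120 hpi. The library values from 1 to 18 hpi (1.392 to 2.241) lay below those at 0 hpi (2.516 and 2.70). The part of feeder RNA in these values was not tested.

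Whether the change from 0 hpi differed between R35A and WT was tested by the interaction of construct and timepoint. Ikzf1 and Ikzf3 fell further in R35A cells at 1, 3 and 6 hpi. At these timepoints 2 of the 5 members were called, beside 14.0%, 13.0% and 10.3% of genes. The difference in change was −1.06 ± 0.05 (SE; adjusted p = 3.84e-23) at 1 hpi, −0.86 ± 0.05 (adjusted p = 1.93e-19) at 3 hpi and −0.995 ± 0.05 (adjusted p = 9.18e-22) at 6 hpi for Ikzf1. For Ikzf3 it was −1.22 ± 0.09 (adjusted p = 7.86e-17) at 1 hpi, −1.07 ± 0.09 (adjusted p = 3.97e-14) at 3 hpi and −0.75 ± 0.09 (adjusted p = 6.93e-09) at 6 hpi. At 18 hpi Ikzf1 still differed in the same direction by −0.37 ± 0.06 (adjusted p = 1.28e-06), whereas Ikzf3 differed in the opposite direction by 0.47 ± 0.13 (adjusted p = 0.00545), and neither reached 1.5-fold. Without replicate 2 of WT at 18 hpi the Ikzf3 difference was 0.78 (adjusted p = 0.000168) and was called. Thus 0 of 5 members were called at 18 hpi, beside 8.36% of genes, with 3 at an unadjusted p under 0.05 and 0 by DESeq2. At 120 hpi 0 of 5 were called, beside 14.5% of genes, with 1 at an unadjusted p under 0.05 and 0 by DESeq2. That member was Ikzf1, at −0.37 ± 0.05 (adjusted p = 6.25e-08).

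**Figure D4:**
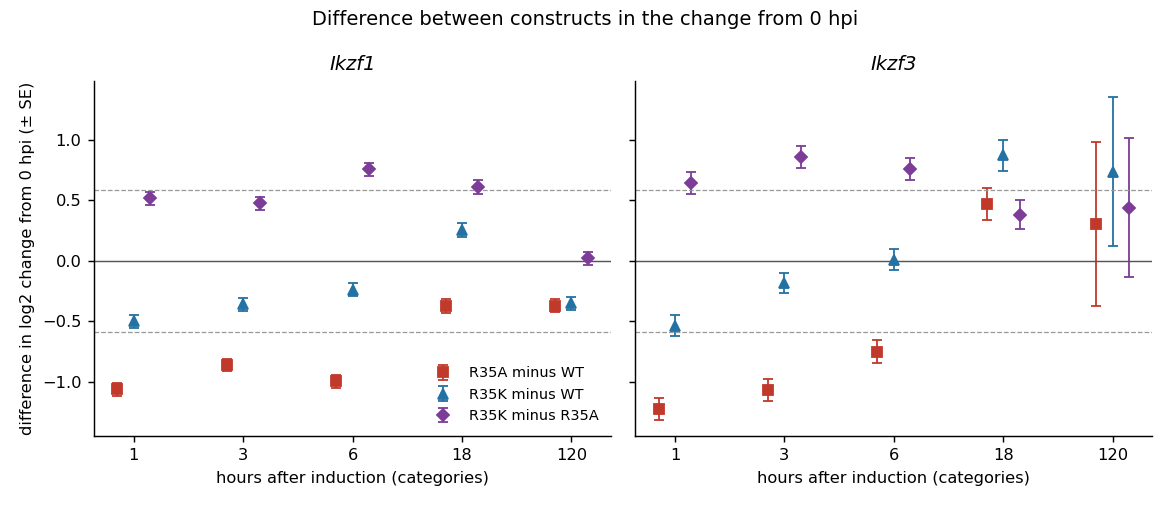
Difference between constructs in the log2 change from 0 hpi for Ikzf1 (left) and Ikzf3 (right) against hours post induction as evenly spaced categories, with bars of 1 SE and dashed lines at 1.5-fold. R35A minus WT is below the lower dashed line from 1 to 6 hpi for both genes and inside the lines for Ikzf1 at 18 and 120 hpi; R35K minus WT lies between the lines from 1 to 6 hpi.

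Levels compared directly at the same timepoint gave Ikzf1 and Ikzf3 as well. At 1, 3 and 6 hpi 2 of the 5 members were lower in R35A than in WT cells, beside 19.3%, 17.0% and 13.7% of genes called. Ikzf1 was lower by 1.15, 0.95 and 1.09 on the log2 scale and Ikzf3 by 1.35, 1.199 and 0.88, respectively. At 18 and 120 hpi Ikzf1 differed by −0.46 at both timepoints (adjusted p = 1.14e-11 and 1.22e-14), under 1.5-fold. At these timepoints 0 of 5 were called by edgeR, beside 10.1% and 18.8% of genes, with 3 and 1 at an unadjusted p under 0.05 and 0 by DESeq2.

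C/EBPα R35K cells lay between the other constructs at 1 hpi for Ikzf1 and Ikzf3. The R35K libraries stand in tables of their own, so a level difference from the other constructs at a single timepoint and a difference between tables cannot be told apart, and changes from the 0 hpi libraries of each construct were compared instead. At 0 hpi itself 0 of 17277 genes differed between R35K and WT and 1 between R35K and R35A at an adjusted p of at most 0.05, with no fold threshold. At 1, 3, 6 and 18 hpi 2 of the 5 members were called against 0 hpi, beside 32.9%, 32.7%, 34.1% and 39.0% of the 16434 genes tested, and at 120 hpi 4 of 5, beside 63.8%. The level of Ikzf1 was 131 and 127 CPM at 1 hpi, 141 and 142 CPM at 3 hpi, 147 and 156 CPM at 6 hpi, 72.2 and 72.7 CPM at 18 hpi and 162 and 173 CPM at 120 hpi. Its log2 fold change against 0 hpi, in order of time, was −1.68, −1.55, −1.46, −2.51 and −1.36, each with an SE of 0.04. Ikzf1 was again lowest at 18 hpi, and the rise from 18 to 120 hpi was 1.15 ± 0.05 (adjusted p = 6.73e-22), beside 53.3% of genes called.

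The level of Ikzf3 in R35K cells was 30.02 and 29.0 CPM at 1 hpi, 31.9 and 34.3 CPM at 3 hpi, 26.9 and 26.1 CPM at 6 hpi, 11.6 and 14.0 CPM at 18 hpi and 0.58 and 0.487 CPM at 120 hpi. The log2 fold change was −3.13 ± 0.05 (SE) at 1 hpi, −3.30 ± 0.05 at 6 hpi and −4.33 ± 0.06 at 18 hpi. Ikzf3 stood at 11.8% of the start after 1 hr, at 5.13% after 18 hr and, with 13 reads left, at 0.215% after 120 hr. Ikzf2 was at 3.19 and 3.91 CPM at 0 hpi, at 4.49 and 4.02 CPM at 18 hpi and at 0.251 and 0.487 CPM at 120 hpi. Its log2 difference at 18 hpi was 0.22 ± 0.20 (adjusted p = 0.326), and at 120 hpi it fell by 3.33 ± 0.38 (adjusted p = 1.27e-09). The fibroblast markers went from 1385–1449 CPM at 0 hpi to 2015–2572 CPM between 1 and 18 hpi and to 388.5–455 CPM at 120 hpi. From 1 to 18 hpi they went from 2486–2559 to 2015–2045 CPM, while mean Ikzf2 went from 3.45 to 4.25 CPM. Per 1000 CPM of these markers the log2 ratio of mean Ikzf2 to its 0 hpi value was −0.87, −0.74, −0.34 and −0.25 at 1, 3, 6 and 18 hpi. It was −1.47 at 120 hpi. The library values from 1 to 18 hpi (1.163 to 2.228) lay below those at 0 hpi (2.304 and 2.699).

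Against WT, the R35K change from 0 hpi of Ikzf1 and Ikzf3 differed by less than 1.5-fold at 1 hpi. At 1, 3, 6 and 120 hpi 0 of the 5 members were called by edgeR, beside 11.9%, 10.0%, 12.2% and 10.1% of the 17277 genes tested, with 2, 3, 2 and 1 at an unadjusted p under 0.05 and 0 by DESeq2. The difference at 1 hpi was −0.50 ± 0.05 (SE; adjusted p = 1.65e-11) for Ikzf1 and −0.53 ± 0.08 (adjusted p = 5.47e-07) for Ikzf3. At 3, 6, 18 and 120 hpi it was −0.36, −0.24, 0.25 and −0.35 for Ikzf1, with SEs of 0.05 to 0.06, each with an adjusted p under the threshold. For Ikzf3 it was −0.18 ± 0.08 at 3 hpi (adjusted p = 0.095) and 0.01 ± 0.09 at 6 hpi (adjusted p = 0.954). At 18 hpi 2 of the 5 members were called, beside 13.3% of genes. Ikzf3 had fallen less in R35K cells, by 0.87 ± 0.12 (adjusted p = 7.12e-08), and Ikzf2 was lower by −0.85 ± 0.27 (adjusted p = 0.0108). The Ikzf2 call was lost without replicate 2 of WT at 0 hpi (−0.73), of WT at 18 hpi (−0.67) or of R35K at 0 hpi (−0.70). Fibroblast markers at 18 hpi summed to 3478–3550 CPM in WT and 2015–2045 CPM in R35K cells. Their part in the Ikzf2 difference was not tested.

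Between the mutants, Ikzf1 and Ikzf3 had fallen less in R35K than in R35A cells. At 1 and 3 hpi 1 of 5 members was called, beside 5.83% and 3.02% of genes, at 6 hpi 2 of 5, beside 5.89%, and at 18 hpi 1 of 5, beside 3.44%. For Ikzf3 the difference in change was 0.64 ± 0.09 (SE; adjusted p = 1.98e-07) at 1 hpi, 0.86 ± 0.09 (adjusted p = 2.07e-10) at 3 hpi and 0.76 ± 0.09 (adjusted p = 5.96e-09) at 6 hpi. For Ikzf1 it was 0.52 ± 0.05 at 1 hpi and 0.47 ± 0.05 at 3 hpi, under 1.5-fold, and 0.76 ± 0.05 (adjusted p = 1.21e-16) at 6 hpi and 0.61 ± 0.06 (adjusted p = 8.23e-12) at 18 hpi. The value at 18 hpi lay close to the threshold and fell to 0.57 to 0.58 with DESeq2, with its size factors in edgeR, or with no filter on low counts. At 120 hpi 0 of 5 were called by edgeR, beside 1.61% of genes, with 0 at an unadjusted p under 0.05 and 0 by DESeq2, and Ikzf1 differed by 0.02 ± 0.05 (adjusted p = 0.875).

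Ordered over the 18 groups, Ikzf1 was highest in the 0 hpi groups of WT, R35K and R35A, followed by WT at 120 hpi, and lowest in R35A, WT and R35K at 18 hpi. Of its 17 pairs of neighbours in this order, 5 had overlapping replicates, among them WT at 1, 3 and 6 hpi. Ikzf3 was highest at 0 hpi and lowest at 120 hpi in all constructs, also with 5 overlapping pairs of 17. For Ikzf2 and Ikzf4 15 of 17 pairs overlapped and for Ikzf5 all 17, so their order is mostly within the spread of replicates.

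The genes whose group means were most like those of each member were found by Pearson's r of log2 mean CPM over the 18 groups, among 14019 genes with a mean of at least 1 CPM. The groups share time, construct and libraries, so r is a description. For Ikzf1 they were Stk4 (r = 0.989), Agap2 (r = 0.989) and Cdca7l (r = 0.985). Blk, a kinase of the B cell receptor pathway (r = 0.998), Klhl14 (r = 0.995) and Emid1 (r = 0.995) were most like Ikzf3. Csnk1g1 (r = 0.993) and Hic1 (r = 0.991) were among those most like Ikzf2, and C130021I20Rik, Fam196a and Rhpn1 (each r = 0.992) most like Ikzf4. For Ikzf5 no r exceeded 0.613, that of Gm48714, followed by Nhlrc2 (r = 0.598) and Ankrd9 (r = 0.596). Among members, r was highest for Ikzf2 and Ikzf4 (r = 0.958), followed by Ikzf3 and Ikzf4 (r = 0.841), and lower for Ikzf1 and Ikzf3 (r = 0.371). At 120 hpi Ikzf4 had 0 to 2 reads and Ikzf2 3 to 9 reads per library, far below their other groups. Ikzf3 had 1 to 7 reads per library at 120 hpi, also far below its other groups. These few low groups weigh on every r of Ikzf2, Ikzf3 and Ikzf4. Against 0 hpi Ikzf4 was called at 120 hpi only, whereas Ikzf3 had fallen from 1 hpi on, so their r does not describe a shared course before 120 hpi.

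Of the co-repressor subunits that Ikaros proteins bind, 18 were listed: Chd3, Chd4, Hdac1, Hdac2, Mta1, Mta2, Mta3, Mbd2, Mbd3, Rbbp4, Rbbp7, Gatad2a, Gatad2b, Cdk2ap1, Sin3a, Sin3b, Ctbp1 and Ctbp2. In WT cells none of them changed by 1.5-fold or more before 6 hpi. At 1 and 3 hpi 0 of 18 were called by edgeR, beside 19.9% and 23.5% of all genes, and 0 by DESeq2. At an unadjusted p under 0.05 there were 15 and 14. At 18 hpi 1 rose and 6 fell, beside 23.9% and 23.2% of all genes. At 120 hpi 1 rose and 8 fell, beside 23.1% and 40.2% of all genes, with a median log2 fold change of −0.49 beside −0.36 over all genes. The share of partners that fell at 120 hpi was near that of all genes. The NuRD subunit Gatad2b went from 212 ± 3.58 to 84.3 ± 5.18 CPM (SD, n = 2) at 120 hpi, a log2 fold change of −1.46 ± 0.04 (SE; adjusted p = 8.91e-34). The histone-binding proteins Rbbp7 and Rbbp4 fell by 1.35 and 1.103. Ctbp2, a CtBP co-repressor, rose by 1.25 ± 0.07, from 21.8 ± 1.33 to 56.7 ± 1.37 CPM. In R35A cells 1 of the 18 (Ctbp2) had risen and 5 (Rbbp4, Mta2, Sin3a, Hdac1 and Cdk2ap1, named after their values were seen) had fallen at 1 hpi, beside 18.3% and 18.9% of all genes. The R35A minus WT difference in change was called for 0 of 18 at 1 hpi by edgeR and by DESeq2, beside 14.0% of all genes, with 12 at an unadjusted p under 0.05 and a median of −0.10.

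The list of genes linked to Ikaros or Aiolos in B lymphoid cells held 15: the surrogate light chain genes Igll1 and Vpreb1, the recombination genes Rag1, Rag2 and Dntt, the signalling genes Blnk, Syk and Il7r, the cell cycle genes Cdkn1b, Ccnd2, Ccnd3 and Myc, and the transcription factors Foxo1, Irf4 and Bcl6. Some of them are B cell markers as such, and Vpreb1 and Blnk are also among the markers given above. In WT cells 8, 9, 10 and 11 of the 15 fell and 0 rose at 1, 3, 6 and 18 hpi, and at 120 hpi 8 fell and 3 rose. Of all genes, 9.27%, 11.5%, 14.7% and 23.2% fell at 1, 3, 6 and 18 hpi, and 40.2% fell and 23.1% rose at 120 hpi. The median log2 fold change was −0.61 at 1 hpi and −1.93 at 120 hpi, beside −0.01 and −0.36 over all genes. Rag2, a subunit of the RAG recombinase, went from 17.2 ± 0.411 CPM (SD, n = 2) at 0 hpi to 0 reads in both libraries at 120 hpi, at least 62.2-fold lower. Igll1 went from 598 ± 2.32 to 0.611 ± 0.488 CPM and Dntt, the terminal transferase, from 145 ± 2.45 to 0.225 ± 0.183 CPM. Myc rose by 1.91 ± 0.05 (SE, edgeR adjusted p = 7.41e-35) on the log2 scale, from 33.9 to 139 CPM. Il7r rose by 0.99 ± 0.06, from 52.8 to 114.6 CPM, and Bcl6 by 0.84 ± 0.07, from 37.7 to 73.9 CPM. In R35A cells Myc went from 38.4 to 66.8 CPM, Il7r from 51.3 to 53.6 CPM and Bcl6 from 38.1 to 37.6 CPM. In R35K cells Myc went from 35.4 to 75.2 CPM, Il7r from 51.8 to 77.5 CPM and Bcl6 from 37.4 to 42.8 CPM.

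The same list moved further in R35A cells at 1 hpi, where 10 of 15 had fallen and 1 had risen, beside 18.9% and 18.3% of all genes. The R35A minus WT difference in change was negative for 9 and positive for 1 of the 15 called at 1 hpi, beside the 8.74% and 5.29% of all genes called in these directions, with a median of −0.91 beside −0.02 over all genes. It was −2.18 ± 0.20 (SE; adjusted p = 1.05e-12) for Rag2 and −2.11 ± 0.09 (adjusted p = 1.82e-25) for Dntt. For Il7r, the receptor chain for the IL-7 in the medium, it was 0.71 ± 0.08 (adjusted p = 5.28e-10), with 43.0 ± 1.52 CPM in WT and 70.2 ± 0.424 CPM in R35A cells (SD, n = 2) at 1 hpi. By 18 hpi 3 differences were negative and 2 positive, beside 2.89% and 5.47% of all genes, and the median was 0.08. At 120 hpi the difference was called for 4 of the 15, beside 14.5% of all genes. Ikzf1 and Ikzf3 themselves belong to the B cell genes that the study chose to follow, which is no independent evidence of their direction.

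The list of regulators of Ikaros proteins held 11 genes, Crbn, Ddb1, Cul4a, Cul4b and Rbx1 of the cereblon ubiquitin ligase, through which lenalidomide leads to the degradation of Ikaros and Aiolos, the casein kinase 2 genes Csnk2a1, Csnk2a2 and Csnk2b, and the protein phosphatase 1 genes Ppp1ca, Ppp1cb and Ppp1cc. In WT cells 0 of 11 were called at 1 and 3 hpi by edgeR, beside 19.9% and 23.5% of all genes, and 0 by DESeq2. At an unadjusted p under 0.05 there were 7 at both timepoints. At 120 hpi 4 of 11 fell and 0 rose, beside 40.2% and 23.1% of all genes, so that the share that fell was near that of all genes. Ppp1cc fell by 1.60 ± 0.10 (SE; adjusted p = 4.21e-20), from 29.7 ± 0.600 to 10.7 ± 0.653 CPM (SD, n = 2). Ddb1 fell by 1.17 ± 0.03, from 978 to 474 CPM, and Ppp1cb by 0.79 ± 0.06, from 380.3 to 241 CPM. The R35A minus WT difference in change at 1 hpi was called for 0 of 11 by edgeR, beside 14.0% of all genes, and for 0 by DESeq2. At an unadjusted p under 0.05 there were 5.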

How the data were processed

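Strand-specific mRNA libraries (TruSeq, 50 bp single-end, HiSeq2500) were mapped by the authors with STAR 2.5.0a to mm10 and analysed with DESeq2 1.14.1, per the labels and the submitters' processing notes. The deposited tables hold raw read counts per gene and log2 normalized counts. The log2 values equalled log2 of the counts divided by size factors plus 1 to rounding error, and were used only for an alternative. No column of per-sample values was left out (0). Libraries were grouped by construct and timepoint from the labels.

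Counts were tested with edgeR 4.0.16 (quasi-likelihood F test, TMM, filterByExpr) in R 4.3.3, in a fit of the 24 WT and R35A libraries, of the 12 R35K libraries, and of all 36 for R35K against the other constructs. A call required at least 1.5-fold and an adjusted p (Benjamini-Hochberg, over all genes tested) of at most 0.05. CPM used TMM factors over 36 libraries, and CPM per kb the exonic length in GENCODE vM21. The floor was 3 counts per library, and intervals and floors cover counting error only. The common biological coefficient of variation was 3.17% to 3.49%. Replicates were labelled biological, and what was cultured separately was not given in the sources used here.

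The members and lists were chosen with earlier results of these data known. All 5 members were named, and from each list the 3 called genes with the largest rise and the 3 with the largest fall at 120 hpi in WT cells, and the 2 with the largest difference of each sign in R35A minus WT change at 1 hpi. The 3 genes most like each member and Cebpa were also named, except 1 gene that is not reported here. Replicate numbers showed no common pairing of libraries. Over 153 pairs of groups the median correlation of same-numbered deviations was −0.00907, with a range of −0.446 to 0.23, and 8 exceeded 0.1. Pairing under other numbers is not excluded by this check. Alternatives were DESeq2 1.42.0, its size factors, other filters and thresholds, a replicate block, and each library left out. The scripts were tested on simulated data.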

Additional observations from a re-analysis of the deposited data

Results flagged for a closer look

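The change from 0 hpi differed between constructs, by the test of the difference itself, in 13 cases. R35A minus WT gave −1.06, −0.86 and −0.995 on the log2 scale for Ikzf1 at 1, 3 and 6 hpi. For Ikzf3 it gave −1.22, −1.07 and −0.75 at the same timepoints. R35K minus WT gave −0.85 for Ikzf2 and 0.87 for Ikzf3 at 18 hpi. R35K minus R35A gave 0.64, 0.86 and 0.76 for Ikzf3 at 1, 3 and 6 hpi, and 0.76 and 0.61 for Ikzf1 at 6 and 18 hpi. These comparisons share libraries, R35A in 2 of them, and are not independent of each other. With 2 libraries per group, no group was examined for single libraries that stand apart in a member's value.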

How the results depend on the processing

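Of the 25 combinations of member and timepoint, 15 were called against 0 hpi in WT, 12 in R35A and 12 in R35K cells, and leaving out each library in turn gave 15, 12 to 13 and 12 to 13. The R35A minus WT count was 6, and 3 with a 2-fold threshold (6 to 7 over libraries left out). The R35K minus R35A count was 5, 8 with no fold threshold and 0 with a 2-fold threshold (4 to 6). The R35K minus WT count was 2, and 8 with no fold threshold, 4 at an unadjusted p with the fold threshold, 0 with a 2-fold threshold and 4 with DESeq2 size factors in edgeR (1 to 5). It was 1 without replicate 2 of WT at 0 or 18 hpi or of R35K at 0 hpi, each of which ended the Ikzf2 call at 18 hpi. It was 5 without replicate 1 of WT at 6 hpi or without any of the 120 hpi libraries, where Ikzf3 at 1 hpi and Ikzf2 at 3 and 6 hpi were gained, and the cause was not tested. The level count for R35A against WT was 6, and 10 with no fold threshold (6 to 7). Steps gave 18 (18 to 20), and the lists 88 (83 to 92) for partners, 164 (164 to 165) for linked genes and 27 (24 to 29) for regulators. With the authors' log2 values, 9 of the 15 genes most like a member were kept. Of the 3 for each member, 3 were kept for Ikzf1, 2 for Ikzf3, 2 for Ikzf5, 1 for Ikzf2 and 1 for Ikzf4. Per feeder fibroblast marker level, chosen after seeing the data, the mean Ikzf2 change in WT cells reversed to −0.50, −0.45, −0.22 and 0.45 at 3, 6, 18 and 120 hpi. In WT cells, replicates at 18 and 120 hpi were not separated from those at 0 hpi on this measure. The 120 hpi fall was not reversed in R35A (−2.06) and R35K cells (−1.47). At 3, 6 and 18 hpi the values were −0.32, −0.38 and −0.29 in R35A cells, opposite in sign to the changes in level. In R35K cells they were −0.74, −0.34 and −0.25, at timepoints where no change in level was called. With a replicate block, which the numbers do not support, the counts were 15, 12 and 12 for changes, 6 for R35A minus WT, 2 for R35K minus WT, 5 for R35K minus R35A, 6 for levels and 19 for steps. DESeq2 size factors moved the median of all genes by 0.12 at 18 hpi and 0.16 at 120 hpi in WT cells, 0.13 in R35A and 0.14 in R35K cells at 120 hpi. Depth limits Ikzf4 and Ikzf5, which had at most 36 and 25 reads in a library.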
